A study of Mus musculus with 12 samples.

Results

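The 8 genes described here are Pparg, the nuclear receptor PPAR gamma, its coactivator gene Ppargc1b, and 6 genes of fatty acid binding, lipoprotein handling and lipid storage that are regarded as PPAR targets, namely Fabp4, Fabp5, Angptl4, Plin2, Lpl and Pltp. Each was found through the RefSeq accession printed for a probe on the array, and the probe with the highest mean intensity stood for the gene. The 8 are a small share of the 16358 genes with a named probe, and 12 probes named them. Of the 8 genes, 7 were among the 11095 genes bright enough to be tested, and Fabp5 was not.

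The cells were mouse bone marrow-derived dendritic cells. Marrow of femur and tibia was depleted of B and T cells, and the remaining cells grew in 10 ng/ml GM-CSF plus 5 ng/ml IL-4 over 5 days. The groups were unstimulated cells (0 h) and cells given LPS, the outer membrane lipid of Gram-negative bacteria, at 100 ng/ml for 1, 6 or 24 h, each with 3 biological replicates. The labels tag these as donor A, B or C in every group, without saying whether a letter marks the same animal throughout. All 4 groups shared the culture with both cytokines, no sort of the cultured cells is named, and neither strain nor age of the mice is given in the labels used here. Unstimulated cells were taken at 0 h only, so LPS and further time in culture cannot be told apart. Each sample was labelled with Cy5 and set on an array beside a Cy3-labelled pool of mouse RNA, the same on every array, and all values below are the log2 ratio of sample to pool. The changes are differences of such ratios, LPS minus unstimulated unless stated otherwise. A change passed, or was called, at an adjusted p under 0.05 in a limma fit of the 12 arrays, adjusted over the 11095 genes. Further probes of a gene were tested in a like fit of 21750 probes, adjusted over those probes.

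PPAR gamma is a nuclear receptor that binds DNA as a heterodimer with the retinoid X receptors and is switched on by fatty acids and their derivatives. It is best known as the master regulator of fat cell differentiation. In macrophages and dendritic cells it is induced by GM-CSF and by IL-4, and it drives genes that take up, carry, store and export lipid. Ligand-bound PPAR gamma is also known to restrain inflammatory gene expression in myeloid cells.

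The receptor is thought to act through pairs of the half-site AGGTCA spaced by 1 base, so the stretches before the start sites of the genes are shown for the matches they hold. RefSeq promoter sequences on GRCm38.p6 were at hand for 5 start sites of 3 of the 8 genes (Pparg, Plin2 and Pltp), and the 250 bases before each start were searched on both strands. The letters of the half-site are in capitals, as AGGTCA or, on the other strand, as TGACCT.
Pparg, chr6:115360894-115361143, plus strand: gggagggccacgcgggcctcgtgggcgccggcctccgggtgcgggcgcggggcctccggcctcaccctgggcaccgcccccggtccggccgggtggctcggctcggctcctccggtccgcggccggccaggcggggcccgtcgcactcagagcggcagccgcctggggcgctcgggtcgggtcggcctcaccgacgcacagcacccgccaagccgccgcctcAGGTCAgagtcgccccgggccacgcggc
Pparg, chr6:115362099-115362348, plus strand: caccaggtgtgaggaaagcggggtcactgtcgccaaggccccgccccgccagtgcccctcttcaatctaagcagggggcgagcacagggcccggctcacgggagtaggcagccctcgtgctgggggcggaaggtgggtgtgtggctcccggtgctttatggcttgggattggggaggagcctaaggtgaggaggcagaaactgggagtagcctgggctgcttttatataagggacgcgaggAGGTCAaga
Plin2, chr4:86670060-86670309, minus strand: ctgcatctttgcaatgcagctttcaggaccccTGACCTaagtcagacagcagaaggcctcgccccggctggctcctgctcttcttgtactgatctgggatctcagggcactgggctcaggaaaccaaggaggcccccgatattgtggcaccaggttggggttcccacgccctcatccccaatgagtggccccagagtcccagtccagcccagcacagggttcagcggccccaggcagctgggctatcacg
Both Pparg stretches held 1 half-site, its first base at -28 and at -9 from the start, and the Plin2 stretch held 1 at -218. The stretches before the other Pparg start and the Pltp start held none. The half-site occurred in 14% of the 32851 promoter stretches of the table, so a match is common. The pair of half-sites in 1 orientation with 1 base between them, AGGTCA then N then AGGTCA, occurred in 11 of them (0.0335%), and in none of the 5. The Plin2 stretch also held 1 match to the consensus of NF-kB, the factor activated by LPS, at -123, and 7.25% of all stretches held such a match.

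The 12 arrays lay on 4 slides, and none carried a 0 h sample beside a 6 h or 24 h one. Slide 1 held the 3 unstimulated samples and 1 h A, slide 2 held 1 h B and 24 h B, slide 3 held 1 h C, 6 h A and 6 h B, and slide 4 held 6 h C, 24 h A and 24 h C. The 2 arrays of slide 2 stood apart, with 68.6 and 68.7% of probes well above background in the reference channel, against 58.6 to 63.6% on the other 10. Arrays of the same group correlated at r of 0.946 to 0.984 across probes. Of 9 genes listed as dendritic cell markers, 8 or 9 were above background on every array. Their mean log2 ratio was 2.66 to 2.84 in unstimulated cells, 3.11 to 3.39 at 1 h, 3.16 to 3.41 at 6 h and 3.17 to 3.49 at 24 h. The exception was Flt3, above background on 7 of 12 arrays, with ratios of -0.14 to 0.25. Of 6 macrophage markers with a probe, 5 or 6 were above background on every array, so this count does not separate the 2 cell types.

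**Figure D1:**
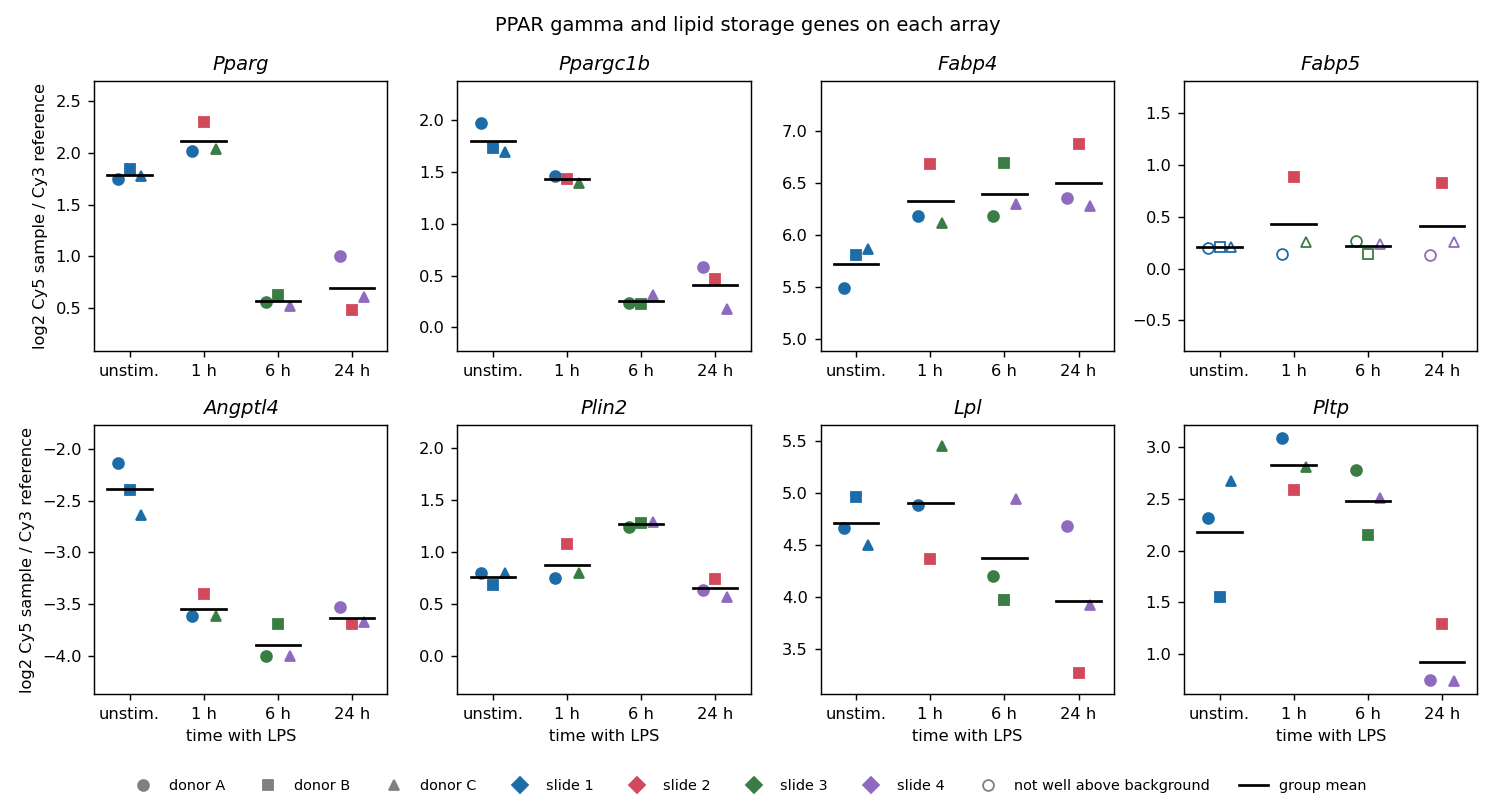
Log2 ratio of sample to reference pool (vertical axis) for each of the 8 genes on each of the 12 arrays, by time of LPS in hours (horizontal axis). Points are arrays, shaped by donor and coloured by slide, hollow where the sample was not well above background, and bars are group means. Pparg and Ppargc1b lie lower at 6 and 24 h than in unstimulated cells, Angptl4 lies lower from 1 h on, and Pltp lies lower at 24 h.

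The receptor and its coactivator both fell by 6 h of LPS and had not returned at 24 h. Pparg lies at chr6:115360879-115490404 on GRCm38.p6. In donors A, B and C its log2 ratios were 1.75, 1.84 and 1.77 in unstimulated cells, 2.01, 2.30 and 2.03 at 1 h, 0.56, 0.63 and 0.52 at 6 h, and 1.00, 0.48 and 0.61 at 24 h. All 6 later arrays lay below all 6 early ones, and the 1 h arrays lay above the unstimulated ones without overlap. The mean was 0.57 ± 0.06 at 6 h, against 1.78 ± 0.05 in unstimulated cells (SD, n = 3 each). That is a change of -1.21 (SE 0.14), or 2.32-fold lower, with an adjusted p of 2.8e-05 in limma. At 24 h it was 0.70 ± 0.27 and 2.12-fold lower than in unstimulated cells (adjusted p = 7.3e-05 in limma). The rise at 1 h, 0.33 with a 95% confidence interval of 0.03 to 0.63, did not pass the test after adjustment (adjusted p = 0.16 in limma). Between 24 h and 6 h the change was 0.13 (adjusted p = 0.58 in limma).

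Ppargc1b, which codes for PGC-1 beta, a coactivator that drives mitochondrial and lipid metabolism, lies on chromosome 18. Its log2 ratios in donors A, B and C were 1.97, 1.73 and 1.69 in unstimulated cells, 1.46, 1.43 and 1.40 at 1 h, 0.24, 0.23 and 0.31 at 6 h, and 0.58, 0.46 and 0.18 at 24 h. The 1 h arrays lay below the unstimulated ones without overlap, and the 6 h and 24 h arrays lay below both. At 1 h the change was -0.37 (SE 0.12) and did not pass the test (adjusted p = 0.089 in limma). At 6 h Ppargc1b was 2.91-fold lower than in unstimulated cells (change -1.54, adjusted p = 1.6e-06 in limma), and at 24 h it was 2.62-fold lower (change -1.39, adjusted p = 5.9e-06 in limma). A second probe gave changes of -0.23, -1.5 and -1.31 at 1, 6 and 24 h, with the last 2 past the threshold. At 1 h the estimates of the receptor and the coactivator were thus of opposite sign, and neither passed.

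Both genes were also lower at 6 h and 24 h than on 1 h arrays of the same slide. No slide held unstimulated cells beside 6 h or 24 h, and the 1 h mean of Pparg lay 0.33 above the unstimulated one. On slide 3, 6 h minus 1 h was -1.44 for Pparg and -1.16 for Ppargc1b (2 arrays against 1). On slide 2, 24 h minus 1 h was -1.82 for Pparg and -0.96 for Ppargc1b (1 array against 1). A slide block gave changes at 6 h and 24 h of -1.41 and -1.32 for Pparg and -1.46 and -1.35 for Ppargc1b, and all 4 passed (adjusted p of 0.0038 to 0.013 in limma). In every slide block here, the unstimulated arrays were tied to the other slides through 1 array only, 1 h A. Over the 12 arrays the ratios of the pair correlated at r = 0.91, as a description of arrays that share groups and slides. In bulk RNA, fewer cells that carry a transcript and less of it per cell cannot be told apart.

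**Figure D2:**
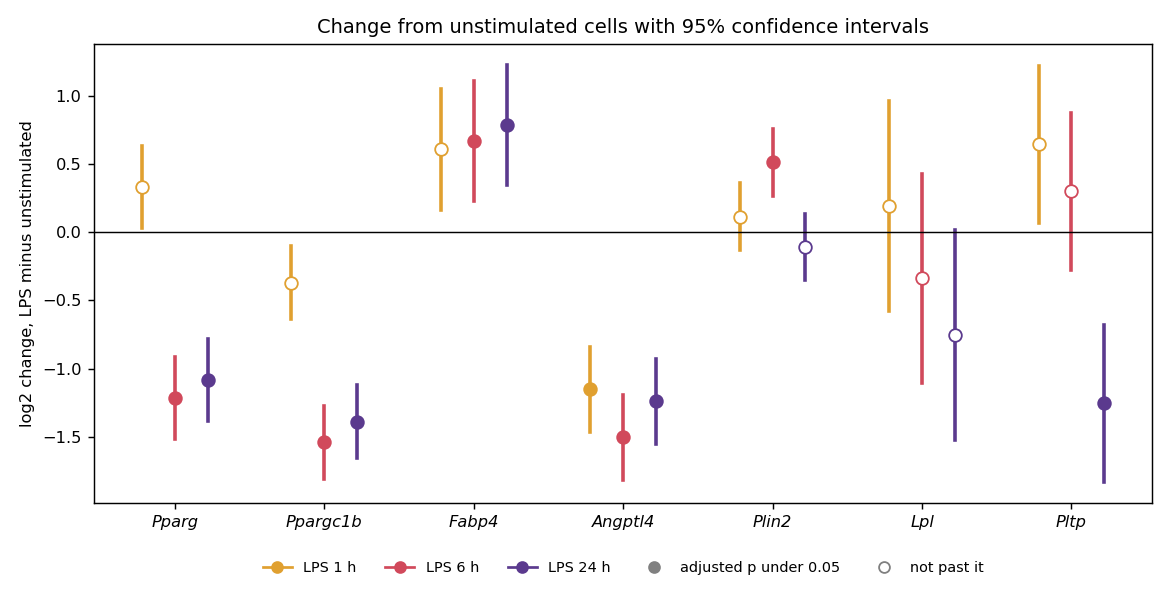
Change in log2 ratio (vertical axis) of the 7 tested genes against unstimulated cells at 1, 6 and 24 h of LPS, with 95% confidence intervals from the fit of all arrays. Filled points passed an adjusted p of 0.05; Pparg at 6 h is at -1.21 and Angptl4 at 1 h at -1.15.

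The lipoprotein lipase pair showed a fall of the inhibitor and no call for the enzyme. Angptl4, a secreted inhibitor of lipoprotein lipase and a PPAR target in many tissues, lies at chr17:33774900-33781575. Its log2 ratios in donors A, B and C were -2.14, -2.40 and -2.64 in unstimulated cells, -3.61, -3.40 and -3.62 at 1 h, -4.00, -3.69 and -3.99 at 6 h, and -3.53, -3.69 and -3.67 at 24 h. All 9 LPS arrays lay below the 3 unstimulated ones. Angptl4 was 2.22-fold lower at 1 h than in unstimulated cells (change -1.15, SE 0.14, adjusted p = 0.00032 in limma). It was 2.83-fold lower at 6 h (adjusted p = 6.7e-06) and 2.36-fold lower at 24 h (adjusted p = 3.8e-05, both in limma). The ratios of the 6 h arrays lay below those of the 1 h arrays without overlap, yet the change did not pass (6 h minus 1 h -0.35, adjusted p = 0.088 in limma). From the 24 h arrays they were hardly separate, with 6 h B at -3.69 and 24 h B at -3.689. That change did not pass either (24 h minus 6 h 0.27, adjusted p = 0.23 in limma). On slide 1, the 1 h array minus the mean of the 3 unstimulated arrays was -1.22. The slide block gave -1.22, -1.58 and -1.32 at 1, 6 and 24 h, and each passed (adjusted p of 0.0056 to 0.017 in limma). With every local background used as deposited they were -1.08, -0.81 and -1.23, and none passed (adjusted p of 0.28, 0.24 and 0.066 in limma). Angptl4 was the 1 gene of the 7 called at 1 h in the fit without a block.

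Lpl, the lipase that frees fatty acids from circulating triglyceride, lies at chr8:68880555-68906932 and was high over the pool throughout. Its log2 ratios in donors A, B and C were 4.67, 4.97 and 4.51 in unstimulated cells, 4.89, 4.36 and 5.46 at 1 h, 4.21, 3.97 and 4.94 at 6 h, and 4.69, 3.27 and 3.93 at 24 h. Each LPS group overlapped the unstimulated one, and the spread between arrays of an LPS group was wide. These arrays differ in donor and in part in slide, with 1 h B and 24 h B on slide 2, and the part of each was not tested. The change was 0.19 at 1 h, -0.34 at 6 h and -0.75 at 24 h (SE 0.36 each), with adjusted p of 0.78, 0.50 and 0.11 in limma. At 24 h the 95% confidence interval ran from -1.52 to 0.02, so these 3 arrays against 3 leave the size of any fall wide. Without the 24 h array of donor A the change was -1.12 and passed (adjusted p = 0.021 in limma). For 6 h minus 1 h, the change was -1.09 with slide as a block (adjusted p = 0.015 in limma), against -0.53 (adjusted p = 0.31) without it. A second Lpl probe gave 0.18, 0.02 and -0.28 at 1, 6 and 24 h against unstimulated cells, and none of the 3 passed. Its groups were tighter, with an SD of 0.02 to 0.26, so the wide spread between arrays was seen on 1 of the 2 probes.

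The fatty acid binding proteins carry fatty acids through the cytoplasm. Fabp4, the adipocyte and macrophage form and a classical PPAR gamma target, lies at chr3:10204342-10208616 and stood far above the pool. Its log2 ratios in donors A, B and C were 5.49, 5.80 and 5.87 in unstimulated cells, 6.18, 6.68 and 6.11 at 1 h, 6.18, 6.69 and 6.30 at 6 h, and 6.36, 6.88 and 6.28 at 24 h. All 9 LPS arrays lay above the 3 unstimulated ones, and donor B was the highest of each LPS group. Group means were 52.7-fold over the pool in unstimulated cells, 80.2-fold at 1 h, 83.9-fold at 6 h and 90.8-fold at 24 h. Against unstimulated cells, Fabp4 was thus higher and Pparg lower at 6 h and 24 h. At 1 h neither change was called (Pparg 0.33, Fabp4 0.61). From 1 h to 6 h Pparg changed by -1.54 and Fabp4 by 0.06. Fabp4 was 1.59-fold higher at 6 h than in unstimulated cells (change 0.67, adjusted p = 0.019 in limma) and 1.72-fold higher at 24 h (change 0.78, adjusted p = 0.0081 in limma). At 1 h the change was 0.61 (SE 0.20), which did not pass (adjusted p = 0.091 in limma) and did with the donor as a block (adjusted p = 0.017). Among the LPS times no change passed, with 0.06 for 6 h minus 1 h and 0.11 for 24 h minus 6 h (adjusted p of 0.85 and 0.74 in limma).

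The calls for Fabp4 rested on single arrays and settings more than those for Pparg. The 6 h call was lost without the unstimulated array of donor A (change 0.55, adjusted p = 0.084) or without the 6 h array of donor B (0.52, adjusted p = 0.088, both in limma). Fitted with a slide block the changes were of like size, 0.74 at 6 h and 0.72 at 24 h, but neither passed (adjusted p of 0.11 and 0.13 in limma). A second probe gave changes of 0.58, 0.54 and 0.66 at 1, 6 and 24 h, of which the last passed (adjusted p = 0.022 in limma). The last probe, whose reference signal never stood well above background, gave 0.54, 0.55 and 0.41, and none passed. The direction was thus up on all 3 probes. With every local background used as deposited, a form that correlated with the authors' ratios at 0.834 on the 6 h array of donor B, the 6 h change was -0.13 and the 24 h change 0.78 without a call (adjusted p = 0.20 in limma), and with median centring the 24 h change was 0.60 (adjusted p = 0.062 in limma).

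Fabp5, the epidermal form, is on the same chromosome as Fabp4, at chr3:10012585-10016610. Its probe was well above background on 2 of 12 arrays, 1 h B and 24 h B, with log2 ratios of 0.88 and 0.83. These are the 2 arrays of slide 2, which stood apart in the reference channel too, and its net sample signal there was 65 and 64.5 intensity units, against 7.5 to 24 on the other 10. The reference signal of the probe was above background on none. Fabp5 was therefore not detected in most samples and no change was tested. With this probe dim in the pool too, a low transcript and a probe that binds poorly cannot be told apart. The part of the slide in the 2 brighter values was not tested.

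**Figure D3:**
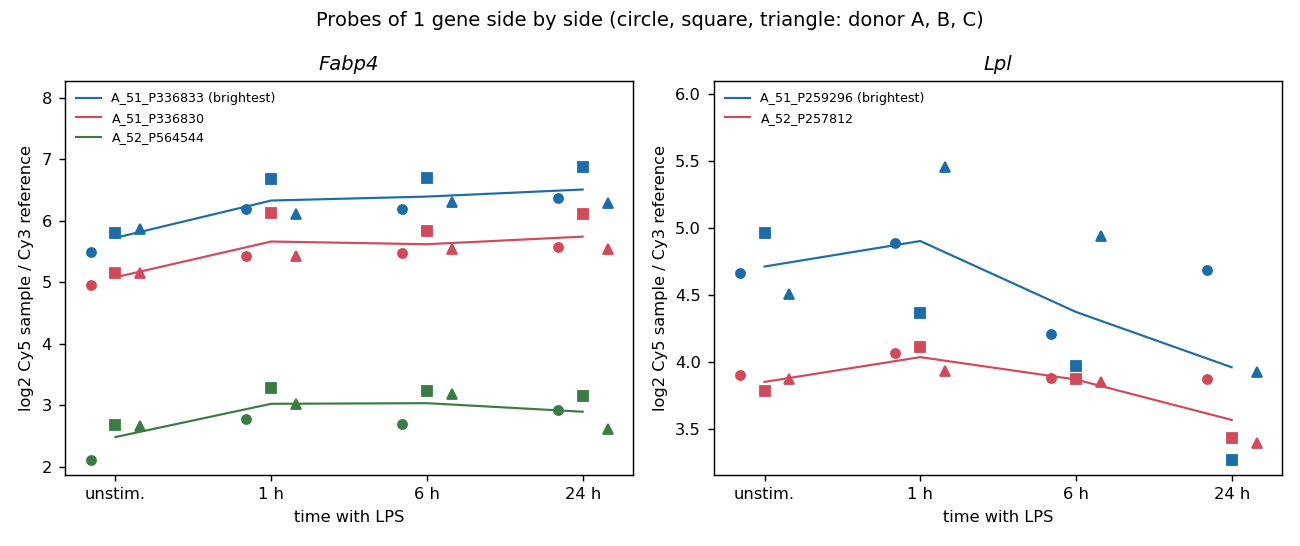
Log2 ratio of sample to reference pool (vertical axis) by time with LPS (horizontal axis) for the 3 probes of Fabp4 and the 2 of Lpl; points are arrays, shaped by donor, and lines join group means. All 3 Fabp4 lines are higher in each LPS group than in unstimulated cells, and the Lpl probe used has group SDs of 0.23 to 0.71, against 0.02 to 0.26 for the other.

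Plin2, which codes for the coat protein of cytoplasmic lipid droplets and rises where cells store neutral lipid, lies at chr4:86626910-86670217. It peaked at 6 h. Its log2 ratios in donors A, B and C were 0.79, 0.68 and 0.80 in unstimulated cells, 0.75, 1.07 and 0.79 at 1 h, 1.24, 1.28 and 1.29 at 6 h, and 0.64, 0.74 and 0.57 at 24 h. The 6 h arrays lay above all others, and the other 3 groups overlapped in part. Plin2 was 1.42-fold higher at 6 h than in unstimulated cells (change 0.51, SE 0.11, adjusted p = 0.0031 in limma). At 24 h it was 1.54-fold lower than at 6 h (change -0.62, adjusted p = 0.0028 in limma), and it did not differ past the threshold from unstimulated cells at 24 h (-0.11, adjusted p = 0.48) or at 1 h (0.11, adjusted p = 0.57). Within slides, 6 h was above 1 h by 0.47 on slide 3, and 24 h minus 6 h was -0.68 on slide 4. With slide as a block, 24 h minus 6 h was -0.72 and passed (adjusted p = 0.0089 in limma), while 6 h minus unstimulated was 0.42 and did not (adjusted p = 0.16). The 6 h minus 1 h change, 0.40 (adjusted p = 0.02 in limma), lost its call when any 1 of the arrays 1 h A, 1 h C, 6 h A or 6 h B was left out (adjusted p of 0.052 to 0.082).

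Pltp, a secreted protein that moves phospholipid between lipoproteins, lies at chr2:164839518-164857708. It was called lower at 24 h, both against unstimulated cells and against 6 h. Its log2 ratios in donors A, B and C were 2.32, 1.55 and 2.67 in unstimulated cells, 3.09, 2.58 and 2.80 at 1 h, 2.78, 2.15 and 2.51 at 6 h, and 0.75, 1.29 and 0.74 at 24 h. The 24 h arrays lay below all others, and donor B was the lowest array of each group but the 24 h one. Pltp was 2.38-fold lower at 24 h than in unstimulated cells (change -1.25, SE 0.27, adjusted p = 0.0025 in limma) and 2.93-fold lower than at 6 h (change -1.55, adjusted p = 0.0019 in limma). No change was called at 1 h (0.64, adjusted p = 0.16) or 6 h (0.30, adjusted p = 0.41). Under the slide block the change against 6 h was -1.52 (adjusted p = 0.023 in limma), and the change against unstimulated cells was -0.71, which missed it (adjusted p = 0.40). On slide 4, 24 h minus 6 h was -1.76.

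Counted together, 1 of the 7 tested genes was called at 1 h (Angptl4, lower), against 7.45% of all genes, 4.06% higher and 3.39% lower. At 6 h 5 of 7 were called, against 39.6% of all genes. Fabp4 and Plin2 were higher, a direction called for 16.1% of all genes, and Pparg, Ppargc1b and Angptl4 were lower, which was called for 23.5%. At 24 h 5 of 7 were called, against 39.4% of all genes; Fabp4 alone was higher (18% of all genes) and Pparg, Ppargc1b, Angptl4 and Pltp were lower (21.5%). With every local background used as deposited the counts were 0 at 1 h, 2 at 6 h and 2 at 24 h. Calls over all 11095 genes were also fewer in that form, at 243, 2436 and 3027 in the same order, against 827, 4397 and 4372 as reported. The genes were chosen for their function with earlier results known, and at 7 genes these shares are a description. The median change of the 7 was 0.19 at 1 h, -0.34 at 6 h and -1.09 at 24 h, against 0.02, -0.04 and 0.02 for all genes tested. Between LPS times, 3 of 7 were called at 6 h against 1 h (28.2% of all genes), with Plin2 higher (12% of all genes) and Pparg and Ppargc1b lower (16.2%). At 24 h against 6 h 2 of 7 were called (18.4% of all genes), both lower, namely Plin2 and Pltp (8.76% of all genes lower and 9.64% higher). A test of any difference among the 4 groups called 6 of the 7, all but Lpl, and 51.7% of all genes. The 3 comparisons against unstimulated cells share those 3 arrays.

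Groups whose arrays did not overlap were common over all genes. Such were 4 of the 7 genes at 1 h, against 30.7% of all genes, 5 of 7 at 6 h (53.9%) and 5 of 7 at 24 h (52.2%). Between LPS times they were 4 of 7 at 6 h against 1 h (40.8% of all genes) and 3 of 7 at 24 h against 6 h (35%). Angptl4 counts among these 3 by a near tie, -3.69 on 6 h B and -3.689 on 24 h B. Pparg, Ppargc1b, Fabp4 and Angptl4 were among them at every LPS time against unstimulated cells.

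The genes thus did not move as a block. Against unstimulated cells Angptl4 was called lower from 1 h on, Pparg and Ppargc1b from 6 h on and Pltp at 24 h. Fabp4 was called higher at 6 h and 24 h and Plin2 at 6 h, and Lpl was not called. The ratio of Fabp4 ran against those of Angptl4 (r = -0.73) and Ppargc1b (r = -0.65), and that of Ppargc1b ran with Angptl4 (r = 0.81), over the same 12 arrays and with their shared slides.

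**Figure D4:**
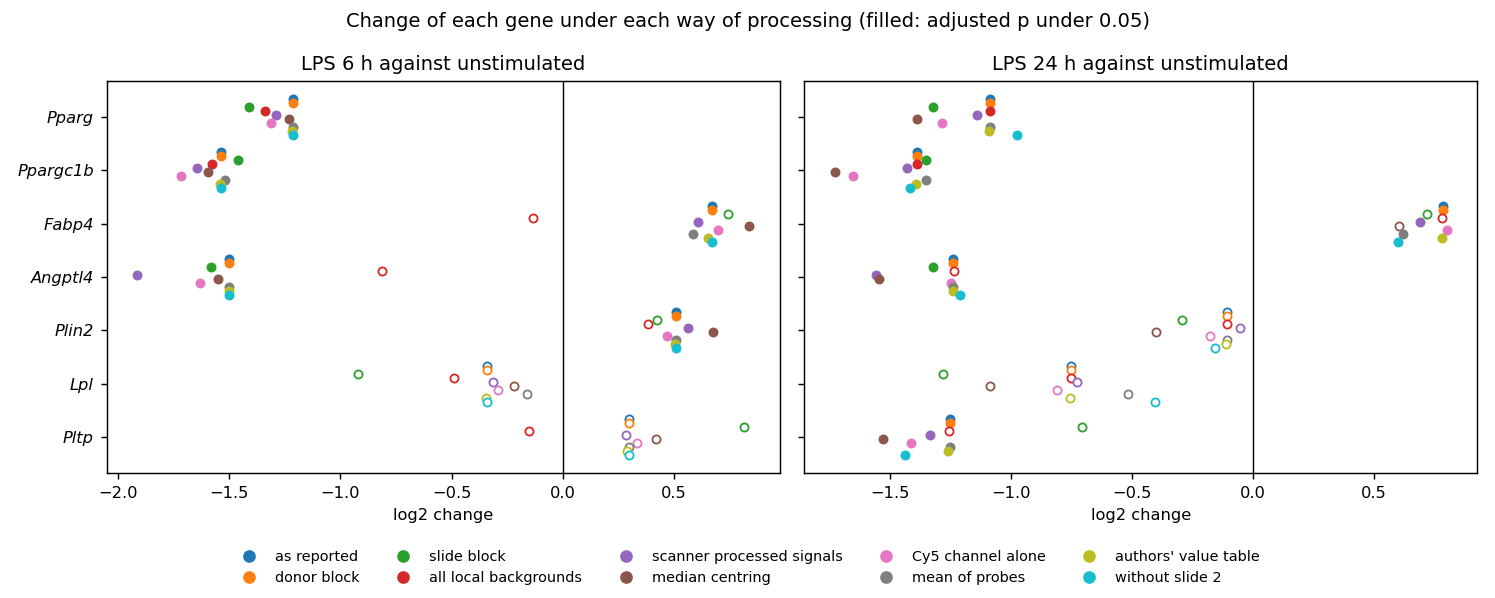
Change in log2 ratio against unstimulated cells (horizontal axis) of the 7 tested genes at 6 and 24 h of LPS under the processing as reported and under the alternatives in the key; each point is 1 setting, filled where the adjusted p is under 0.05. Pparg and Ppargc1b stay below 0 throughout, while Fabp4 at 6 h is at -0.13 in 1 setting.

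The genes whose ratios followed each course most closely over the 12 arrays, among 11081 genes compared, were as follows. For Pparg they were Ifngr1 (r = 0.982), a chain of the interferon gamma receptor, Csgalnact2 (0.979) and Slco2b1 (0.976), an organic anion transporter. For Ppargc1b they were Mthfd1 (r = 0.983), an enzyme of folate metabolism, Ruvbl1 (0.982) and Tarsl2 (0.981). For Angptl4 they were Ankrd10 (r = 0.987), Psmg3 (0.970) and Slain1 (0.969). Fabp4 ran most like Gla (r = 0.961), the lysosomal alpha-galactosidase, Zfp982 (0.948) and Slc7a2 (0.945), a cationic amino acid transporter. Plin2 ran most like Vps54 (r = 0.947), Rdh5 (0.937) and Ptprj (0.928), and Lpl most like Myadm (0.919), Nsmce2 (0.915) and Hsd17b7 (0.902), an enzyme of cholesterol synthesis. Pltp ran most like C1qb (r = 0.948), a chain of complement C1q made by macrophages, Isoc2b (0.929) and Zfp318 (0.928). With 4 groups on 12 arrays many genes share a course, and r of this size is a description only.

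In all, 84 other genes of the pathway in 6 lists were set beside the 8, and 71 of them were tested. Their calls come from the fit without a block, and no other setting is given for them. With slide as a block, calls over all genes were fewer, 1949 at 6 h and 1762 at 24 h, against 4397 and 4372. The dimerisation partner Rxra (retinoid X receptor alpha) was 2.13-fold lower at 24 h than in unstimulated cells (change -1.09, adjusted p = 0.00042 in limma). It was already 2.15-fold lower at 6 h (-1.11, adjusted p = 0.00038 in limma). Lpin1, a phosphatidate phosphatase that also coactivates PPARs, was 4.11-fold lower at 6 h (-2.04, adjusted p = 1.8e-05 in limma) and 1.85-fold lower at 24 h (-0.89, adjusted p = 0.0064). Of the 15 tested receptors and coregulators, 0 were higher and 4 lower at 6 h (16.1% and 23.5% of all genes). At 24 h 3 were higher and 5 lower (18% and 21.5% of all genes). The list's median change was 0.06 at 6 h and 0.15 at 24 h (-0.04 and 0.02 over all genes). Cebpb (0.96) and Ncor1 (0.56) were among the higher at 24 h. Ppara, looked up after its values were seen, was above background on none of the arrays.

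Fatty acid uptake and activation was mixed, with the largest rises of the 6 lists. Acsl1, which activates long-chain fatty acids as acyl-CoA, was 9.05-fold higher at 6 h (change 3.18, adjusted p = 3e-08 in limma) and 6.47-fold higher at 24 h. Fabp3, the heart fatty acid binding protein and a relative of Fabp4, was 8.71-fold higher at 6 h (change 3.12, adjusted p = 7.4e-05 in limma) and 5.27-fold higher at 24 h. Acsl3 was lower at both times (-1.14 and -1.15), Dbi, the acyl-CoA binding protein, at 6 h (-0.62), and Vldlr, a lipoprotein receptor, was lower at 24 h (-1.10). Of 12 tested genes, 2 were higher and 4 lower at 6 h (16.1% and 23.5% of all genes). At 24 h 3 were higher and 5 lower (18% and 21.5% of all genes). The median change was -0.24 and -0.20.

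In triglyceride synthesis and lipid droplets, 1 of 13 tested genes was higher and 3 lower at 6 h (16.1% and 23.5% of all genes). At 24 h 3 were higher and 0 lower (18% and 21.5% of all genes). Hilpda, a droplet protein that inhibits lipolysis, was 4.14-fold higher at 24 h (change 2.05, adjusted p = 0.00056 in limma), when Plin2 was back near its unstimulated ratio. Dgat2, the last enzyme of triglyceride synthesis, was higher at both times (0.84 and 1.22, adjusted p of 0.045 and 0.007 in limma). Plin3, another droplet coat gene, was lower at 6 h (-0.48, adjusted p = 0.013), as was Soat1 (-0.77, adjusted p = 0.0015), which esterifies cholesterol. The list's median change was -0.07 at 6 h and 0.23 at 24 h. Of 5 tested lipolysis genes, 0 were higher and 1 lower at 6 h (16.1% and 23.5% of all genes). The lower one was Abhd5, the activator of the first triglyceride lipase (-0.42). At 24 h 1 was higher (Lipe, 0.35) and 1 lower (Lipa, -0.68), against 18% and 21.5% of all genes.

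Of 14 tested genes of fatty acid oxidation, 1 was higher and 4 lower at 6 h (16.1% and 23.5% of all genes). At 24 h 1 was higher and 2 lower (18% and 21.5% of all genes). Acadm, the medium-chain dehydrogenase of mitochondria, was lower at 6 h (change -0.84, adjusted p = 0.0027 in limma). Acadl was higher at 6 h (0.48, adjusted p = 0.034). At 24 h the carnitine carrier Slc25a20 was higher (0.39), and Hadh (-0.63) and Acadvl (-0.45) were lower. The median changes of -0.22 and -0.16 compare with -0.04 and 0.02 over all genes.

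Genes linked to PPAR gamma and IL-4 in myeloid cells split at 24 h, with 5 of 12 higher and 5 lower. Over all genes those shares were 18% and 21.5%. Mrc1, the mannose receptor, was 7.58-fold lower at 24 h than in unstimulated cells (change -2.92, adjusted p = 4e-05 in limma) and was above background on 2 of 3 arrays there. Klf4, a transcription factor, was 6.16-fold lower at 6 h and 5.36-fold lower at 24 h. Il4ra, the IL-4 receptor chain, was 2.82-fold higher at 24 h (1.5, adjusted p = 0.00013 in limma), and Irf4 was higher at 6 h (1.38) and 24 h (1.07). At 6 h 3 of the list were higher, Cish (0.62) among them, and 1 lower (16.1% and 23.5% of all genes). The list's median change was 0.08 at 6 h and -0.05 at 24 h. At 1 h 4.06% of all genes were called higher and 3.39% lower. In the lists, 1 of 12 tested genes of uptake and activation was higher and 1 of 5 in lipolysis was lower. In the IL-4 linked list 3 of 12 were higher, and the remaining lists had no call at 1 h.

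Markers of other cells were read beside these results. Of the fat cell markers, 1 to 4 of 7 were above background on an array, with a mean log2 ratio between -0.46 and -0.20 in all groups. Lep and Cfd were above background on 0 arrays, Adipoq and Plin1 on 2, Retn on 4, Cidec on 9 and Plin4 on 12. Only Plin4 and Cidec were tested, and neither was called at any LPS time against unstimulated cells. Macrophage markers (6 of 7 with a probe) had a mean log2 ratio of 1.10 to 1.27 in unstimulated cells, 1.68 to 1.76 at 1 h, 1.57 to 1.76 at 6 h and 1.41 to 1.48 at 24 h. Cd14, an LPS co-receptor on this list, was 10.2-fold higher at 1 h and 23.3-fold higher at 24 h, while the list's median change was -0.06 at 1 h, 0.47 at 6 h and -0.59 at 24 h, and Mertk and Lyz2 were among the lower at 24 h. Neutrophil markers (7 of 8 with a probe) had 2.52 to 2.98 in unstimulated cells, 1.44 to 1.96 at 1 h, 0.99 to 1.41 at 6 h and 0.75 to 1.64 at 24 h. All 5 tested were called lower at 6 h and at 24 h (23.5% and 21.5% of all genes), with median changes of -1.74 and -2.01. Endothelial markers were low, at 0.21 to 0.37, 0.33 to 0.40, 0.68 to 0.93 and 0.45 to 0.84 in the same order, with Cdh5, Tek and Emcn above background on 0 arrays. Of the 2 tested, Kdr was higher at 6 h (2.90) and 24 h (2.17) and Pecam1 was at -0.29 and -0.41. The mean of the neutrophil markers was thus lower on every LPS array than on any unstimulated one, and the macrophage list moved in both directions. Their part in the changes of the 8 genes was not tested.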

How the data were processed

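The scanner output, made with Agilent Feature Extraction 10.7.3.1 per the file headers, gives the median intensity of spot and local background in both channels. The deposited value table holds log2 ratios that the authors normalised (limma is named in the submitters' processing notes) and served as an alternative. Ratios were derived anew from the scanner output with limma 3.58.1 in R 4.3.3 (labels read with jsonlite 2.0.0): normexp background correction with offset 50, then loess with span 0.3 and control spots at weight 0. The files hold median in place of the planned mean signals. Local backgrounds marked as outliers were set to the array median and outlier spots left out, choices made after seeing the files. On each array the ratios correlated with the authors' at 0.999 or more.

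Probes whose sample signal was well above background on the 3 arrays of at least 1 group were kept (21750 of 41174), and the brightest stood for a gene. A mean per group was fitted to 12 arrays with lmFit and eBayes, with Benjamini-Hochberg adjustment over 11095 genes at 0.05; no spot was saturated. The number of arrays limits the precision, and there was no dye swap. The labels' donor tag gives A, B or C in every group, without saying whether a letter is 1 animal throughout, and the donor was fitted as a block in an alternative. Deviations from group means correlated at r of -0.21 to 0.584 (median 0.109) in same-donor pairs and -0.528 to 0.406 (median -0.0134) in others. Alternatives changed the background, scaling, filter, probe, slide or donor block, or left out arrays.

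The members, lists and tests were chosen with earlier results of these data known. From each list, the 2 largest rises and falls past the threshold at 6 h and at 24 h were to be named, and for each member the 3 genes of highest r; 2 genes the rule would name are not reported here. Gene positions and promoters are from RefSeq (GRCm38.p6). Fits were tested on simulated data with independent noise and no slide or donor effect, so that test does not cover the layout of the slides.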

Additional observations from a re-analysis of the deposited data

How the results depend on the processing

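Settings are compared by the number of the 7 tested genes called. With the donor as a replicate block the count at 1 h was 2, in place of 1, through Fabp4, and no other call of the 7 genes changed. With slide as a block it was 3 at 6 h and 3 at 24 h, in place of 5 each. Under normexp with every local background as deposited it was 0 at 1 h, 2 at 6 h and 2 at 24 h; for 24 h against 6 h it was 0 (2 as reported) and for any difference 3 (6 as reported). Over all 11095 genes that form called 243 at 1 h, 2436 at 6 h and 3027 at 24 h. For 24 h against 6 h it called 790. That form correlated with the authors' ratios at 0.834 on the 6 h array of donor B. It ended the calls of Angptl4 at 1, 6 and 24 h (-1.08, -0.81 and -1.23, adjusted p of 0.28, 0.24 and 0.066), of Plin2 at 6 h (0.39, adjusted p = 0.071), of Fabp4 at 24 h (0.78, adjusted p = 0.20) and of Pltp at 24 h (-1.26, adjusted p = 0.052). It also ended those of Plin2 at 6 h against 1 h (0.29, adjusted p = 0.21) and of Plin2 (-0.49, adjusted p = 0.056) and Pltp (-1.10, adjusted p = 0.15) at 24 h against 6 h, and left Fabp4 at 6 h with the opposite sign.

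Reversed changes on the log2 scale were as follows. Median centring gave -0.16 for Pparg, -0.13 for Ppargc1b and -0.24 for Fabp4 at 24 h against 6 h, and -0.090 for Plin2 and -0.044 for Lpl at 1 h; under it the median change of all genes was -0.12 at 1 h, 0.05 at 6 h and -0.11 at 24 h (0.02, -0.04 and 0.02 as reported), and it took the call of Fabp4 at 24 h (0.60, adjusted p = 0.062). Every local background as deposited gave -0.13 for Fabp4 and -0.15 for Pltp at 6 h, -0.66 for Fabp4 and 0.26 for Angptl4 at 6 h against 1 h, and -0.42 for Angptl4 at 24 h against 6 h. Slide as a block gave -0.024 for Fabp4 at 24 h against 6 h and -0.0074 for Plin2 at 1 h. The Cy5 channel alone gave -0.053 for Lpl at 1 h. Without both arrays of slide 2, a setting added after seeing the data, Fabp4 was at -0.071 at 24 h against 6 h. Other probes, also added later, gave -0.044 for Fabp4 at 6 h against 1 h, -0.14 for Fabp4 at 24 h against 6 h and 0.018 for Lpl at 6 h. The cause was not tested.

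With 1 array left out at a time, the counts of the 7 called against unstimulated cells were 1 throughout after 1 h, 4 to 5 after 6 h and 5 to 6 after 24 h. They were 2 to 3 for 6 h against 1 h, 2 throughout for 24 h against 6 h and 5 to 7 for any difference. Changes whose sign turned ranged from -0.025 to 0.24 for Pparg and from -0.071 to 0.27 for Fabp4 at 24 h against 6 h, from -0.086 to 0.24 for Fabp4 at 6 h against 1 h, from -0.087 to 0.46 for Lpl at 1 h and from -0.015 to 0.55 for Pltp at 6 h, and none of these passed a threshold in any such fit.

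Of 790 changes compared, 740 kept direction and call. Part of that was fixed beforehand: 420 came from leaving out 1 array, which leaves a change the same when that array is in neither group compared. The scanner software's processed signals, the authors' table, no filter on dim probes and the mean of a gene's probes kept all 35 each. Without the filter the 7 genes had the same probes, and the mean is the same value for a gene with 1 probe. Over all genes, as reported, 827, 4397 and 4372 were called against unstimulated cells after 1, 6 and 24 h, 3128 between 1 h and 6 h and 2042 between 6 h and 24 h. In the same order slide as a block called 225, 1949, 1762, 2728 and 868 and the alternatives together gave 225 to 1130, 1949 to 4851, 1762 to 4741, 1373 to 3464 and 790 to 2408. With 1 array left out they were 338 (without the unstimulated array of donor A) to 1046, 3375 to 4636, 3472 to 4652, 2083 (without the 6 h array of donor A) to 3186 and 1079 (without the same array) to 2309.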
